A study of Homo sapiens with 12 samples.

Results

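Phosphorylation of the translation initiation factor eIF2alpha is set by 4 kinases and by protein phosphatase 1 with its targeting subunits, and the transcripts of this circuit were followed in human motor neuron cultures exposed to the organochlorine pesticide *cis*-chlordane. The 7 genes were taken by symbol from a count table of 28278 genes, and were chosen with earlier results of these data known. They are the kinases EIF2AK1 (HRI), EIF2AK2 (PKR), EIF2AK3 (PERK) and EIF2AK4 (GCN2), the phosphatase subunits PPP1R15A (GADD34) and PPP1R15B (CReP), and DNAJC3 (p58IPK), a co-chaperone known as an inhibitor of PKR and PERK. All 7 had enough reads to be tested in each of the 5 comparisons described below.

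Cells came from WA09-Islet1-GFP, a wild-type human embryonic stem cell line in which GFP reports the transcription factor Islet1, a motor neuron marker. Differentiated cultures received *cis*-chlordane or an equal volume of the solvent DMSO for 16 hours and were then sorted on GFP, which gave 4 groups of 3 libraries: control GFP-positive, treated GFP-positive, control GFP-negative and treated GFP-negative. The dose was 10 µM in the sample labels, whereas the methods of the study give a higher one. All groups derive from 1 engineered line, the replicates were separate thaws of frozen differentiated cells, and the titles of treated libraries also carry the word untreated, so the treatment was read from the rest of the title.

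Phosphorylated eIF2alpha blocks its own exchange factor, eIF2B, so that most translation slows while a few mRNAs, above all that of ATF4, are translated more. Each kinase is known for its own trigger: PERK for unfolded protein in the endoplasmic reticulum (ER), GCN2 for uncharged tRNA, PKR for double-stranded RNA, and HRI for lack of heme and for mitochondrial or oxidative stress. GADD34 and CReP bring protein phosphatase 1 to eIF2alpha and so reverse the signal, GADD34 as an inducible subunit and CReP as the constitutive one.

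The promoters of the members whose values the results turn on are shown here, because known stress-response motifs lie in some of them and not in others. Each line gives 240 bases before and 10 bases after the transcription start in RefSeq on GRCh38.p14, written along the gene's own strand, for 5 of the 6 members that had an entry. Capitals mark the motifs that were searched on both strands.
EIF2AK3, chr2:88627455-88627704, minus strand: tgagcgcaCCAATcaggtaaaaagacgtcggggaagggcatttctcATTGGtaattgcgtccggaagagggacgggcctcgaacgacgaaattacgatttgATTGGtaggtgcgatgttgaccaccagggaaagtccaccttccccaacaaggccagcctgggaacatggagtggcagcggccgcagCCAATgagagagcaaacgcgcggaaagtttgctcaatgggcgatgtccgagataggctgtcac
PPP1R15A, chr19:48872181-48872430, plus strand: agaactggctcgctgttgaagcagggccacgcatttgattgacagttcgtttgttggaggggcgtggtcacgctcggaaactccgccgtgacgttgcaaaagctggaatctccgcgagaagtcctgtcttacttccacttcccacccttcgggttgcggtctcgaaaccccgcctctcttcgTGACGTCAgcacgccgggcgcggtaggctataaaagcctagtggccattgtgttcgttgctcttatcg
PPP1R15B, chr1:204411808-204412057, minus strand: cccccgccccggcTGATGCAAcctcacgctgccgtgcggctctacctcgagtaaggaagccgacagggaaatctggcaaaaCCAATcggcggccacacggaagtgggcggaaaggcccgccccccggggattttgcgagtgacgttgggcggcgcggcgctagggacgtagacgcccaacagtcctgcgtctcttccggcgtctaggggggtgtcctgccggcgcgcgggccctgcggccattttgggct
DNAJC3, chr13:95676899-95677148, plus strand: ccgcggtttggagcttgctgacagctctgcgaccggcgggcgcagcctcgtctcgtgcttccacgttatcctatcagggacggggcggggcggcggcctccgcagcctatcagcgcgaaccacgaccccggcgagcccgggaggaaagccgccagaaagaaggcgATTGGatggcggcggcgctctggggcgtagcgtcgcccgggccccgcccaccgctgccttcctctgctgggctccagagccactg
EIF2AK2, chr2:37156971-37157220, minus strand: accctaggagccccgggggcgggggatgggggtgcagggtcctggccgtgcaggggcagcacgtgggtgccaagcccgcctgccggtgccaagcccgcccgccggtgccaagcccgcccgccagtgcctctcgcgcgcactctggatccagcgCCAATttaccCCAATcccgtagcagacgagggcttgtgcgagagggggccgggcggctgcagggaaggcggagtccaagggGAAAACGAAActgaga

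The motifs were the CCAAT box, the cyclic AMP response element TGACGTCA, the C/EBP-ATF response element TGATGNAA bound by ATF4 with C/EBP partners, the interferon-stimulated response element (GAAA, 2 bases, GAAA), and the ER stress elements (CCAAT, 9 bases, CCACG, and ATTGG, 1 base, CCACG) with the core TGACGTG of the unfolded protein response element. EIF2AK3 held 4 CCAAT boxes, 2 of them on the opposite strand. At least 1 CCAAT box was held by 32% of 35116 RefSeq promoters of the same length, and the share with 4 was not counted. PPP1R15A held the cyclic AMP response element from 58 to 51 bases before its start (1.78% of all promoters did), and PPP1R15B held the C/EBP-ATF response element from 227 to 220 bases before its start (3.16%). DNAJC3 held 1 CCAAT box on the opposite strand, and neither DNAJC3 nor EIF2AK3 held any other of the motifs. EIF2AK2 had 2 CCAAT boxes and an interferon-stimulated response element that ran from 6 bases before to 4 bases after its start (3.06%), the element through which interferon is known to raise PKR. The ER stress elements (0.0712% and 0.0513% of promoters) and the unfolded protein response core (1.75%) were not in any of these windows, and EIF2AK4 had none of the motifs. EIF2AK1 had no entry.

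Between 23414935 and 38347050 reads were counted per library. Values are CPM, the read counts of a gene relative to the library total, scaled by edgeR's TMM factors over all 12 libraries. A difference passed if the quasi-likelihood test of edgeR gave a Benjamini-Hochberg adjusted p under 0.05, adjusted over all genes tested. A differentially expressed gene (DEG) also changed by at least 2-fold, the limit of the study. The p-values rest on the spread between these 3 libraries per group, which edgeR moderates for each gene with the spread of the other genes tested. This moderation was estimated anew in each comparison, so the sizes of p-values from different comparisons cannot be set against each other. ISL1, which encodes Islet1, stood at 65.9 ± 3.18 CPM (SD, n = 3) in control GFP-positive and 2.56 ± 0.189 CPM in control GFP-negative cells, and at 12.0 ± 3.72 CPM and 0.549 ± 0.153 CPM after treatment. The summed level of 10 motor neuron markers was 2327 to 2909 CPM in control GFP-positive libraries and 772 to 1145 CPM in treated ones, with 9 of the 10 markers lower. Markers of some other cells fell in the same sort. The summed level of 6 mesenchymal markers was 260.3 to 327.7 CPM in control and 49.96 to 82.1 CPM in treated libraries. That of 5 dividing cell markers was 59.3 to 91.8 and 32.5 to 37.1 CPM. Of 7 tested progenitor markers, 2 were higher and 3 lower, where 26.5% of all tested genes were higher and 24.4% lower. The 2 that rose were PAX6 and OLIG2, by 2.01 (adjusted p = 5.0e-10) and 0.97 (adjusted p = 0.00195) on the log2 scale. The 3 that fell were HES1 (means of 2.74 CPM in control and 0.894 CPM in treated libraries), NKX2-2 (8.28 and 4.64 CPM) and NES (1502 and 1051 CPM). Summed over 8 progenitor markers, the level was 2882 to 3246 CPM in control and 2334 to 3172 CPM in treated libraries. In bulk libraries, fewer cells of a type and less marker RNA per cell cannot be told apart, and the part of these shifts in the results below was not tested. Replicate 3 of control GFP-negative cells stood apart in its summed level of 8 microglia and blood markers, at 2551 CPM, almost all from the globin genes HBA1 and HBA2, against 2.57 to 107 CPM in the other 11 libraries. PTPRC, a leukocyte marker on that list, was at 28.1 CPM in the same library and reached at most 0.990 CPM in the other groups. CD68 reached 7.52 CPM in control GFP-negative and 16.8 CPM in treated GFP-positive libraries. AIF1, a microglial marker, was at 0 in every library. Members' values in the comparisons that use that library are also given without it where the value or its call rests on it.

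To assess which part of the circuit responded in motor neurons, treated and control GFP-positive cells were compared. EIF2AK3, PPP1R15A, PPP1R15B and DNAJC3 rose 2.72-fold to 7.18-fold, EIF2AK1 and EIF2AK2 rose by less than 2-fold, and EIF2AK4 did not pass. Of the 7 members, 6 were higher, where 26.5% of 15333 tested genes were higher, and 0 were lower, where 24.4% were. None was lower at an unadjusted p under 0.05 or in DESeq2 either. Of the 6, 4 were DEGs, where 12.8% of genes were DEGs that rose. The same 6 had every treated library above every control library, where 26.7% of tested genes did. The median log2 fold change of the 7 was 1.44, and that of all tested genes 0.03.

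**Figure D1:**
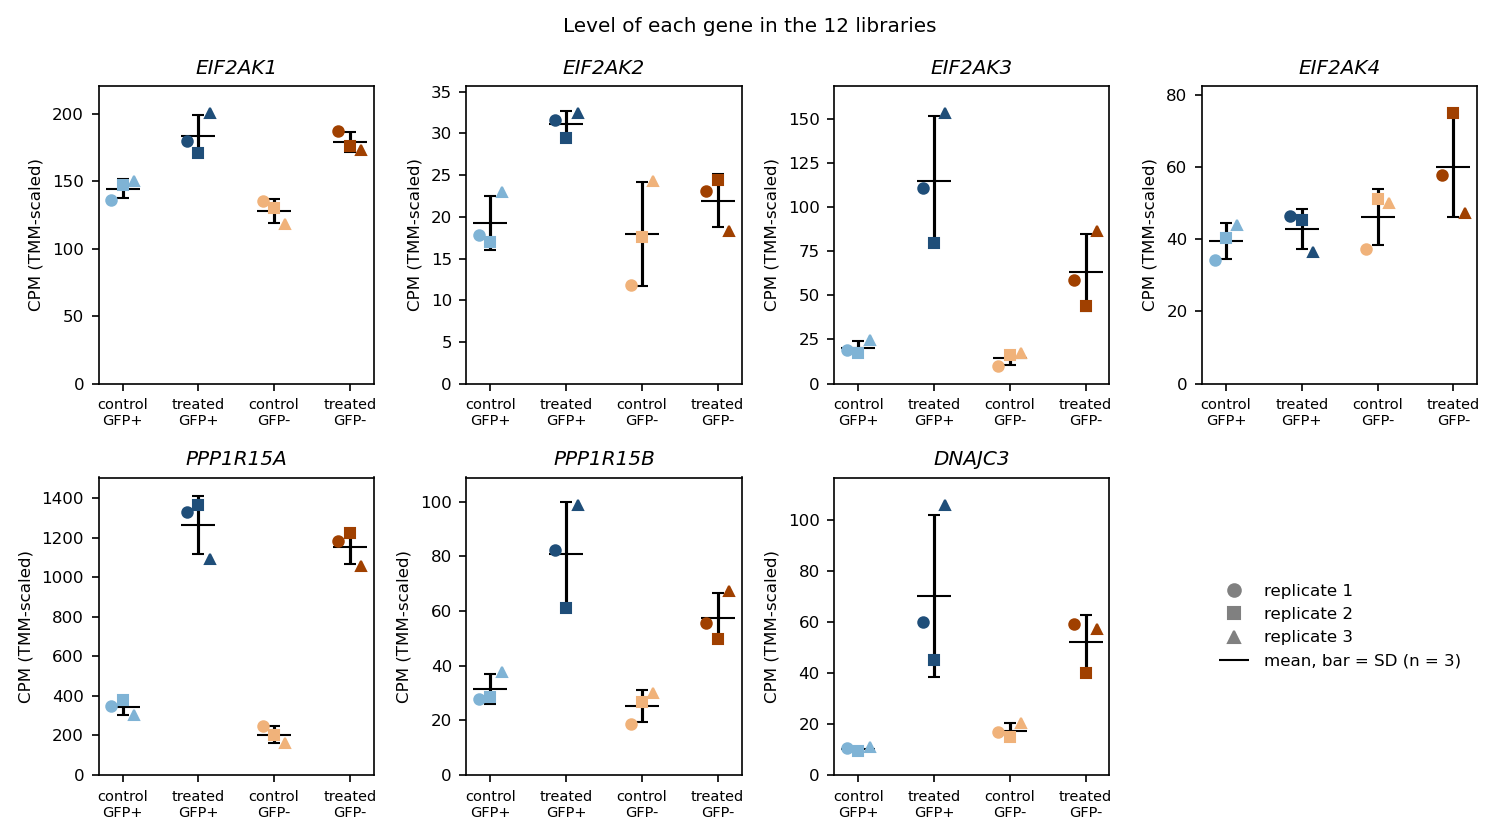
Level of each of the 7 genes in the 12 libraries, in TMM-scaled CPM on axes that start at 0, with replicates 1 to 3 as circles, squares and triangles and lines for the mean and SD of 3 libraries. EIF2AK3, PPP1R15A, PPP1R15B and DNAJC3 had every treated library above every control library in both sort fractions, whereas the groups of EIF2AK4 overlapped within each fraction.

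EIF2AK3 encodes PERK, the kinase of the ER membrane. On GRCh38 it lies on the minus strand at chr2:88556741-88691518 in GENCODE, whose gene model begins upstream of the RefSeq start shown above. Its level in GFP-positive cells was 18.8, 17.3 and 24.6 CPM in control replicates 1 to 3 and 110.9, 79.6 and 153.4 CPM in treated replicates 1 to 3. The lowest treated library was thus more than 3 times the highest control library, and the groups did not overlap. The log2 fold change was 2.58 (standard error 0.21, adjusted p = 1.2e-12), a 5.97-fold rise. No other kinase moved by as much: the next, EIF2AK2, had a log2 fold change of 0.77.

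EIF2AK2 (chr2:37099210-37157522, minus strand) encodes PKR. Its level was 17.8, 17.0 and 23.0 CPM in the controls and 31.6, 29.5 and 32.5 CPM in treated GFP-positive cells, without overlap. The rise was 1.70-fold (log2 fold change 0.77, standard error 0.19, adjusted p = 8.2e-04). With the trend of counts with GC content removed in each library, the log2 fold change was 0.27 and no longer passed (adjusted p = 0.133). The canonical transcript of EIF2AK2 had the lowest GC content of the 7, 38.5%.

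EIF2AK1 (chr7:6022247-6059175, minus strand) encodes HRI. It had 136.4, 147.2 and 149.9 CPM in control and 179.9, 170.7 and 200.5 CPM in treated GFP-positive libraries. All treated libraries were above all controls, by 1.34-fold (log2 fold change 0.42, standard error 0.16, adjusted p = 0.0236). This call was lost with the GC trend removed (0.27, adjusted p = 0.074), without control replicate 1 (0.38, adjusted p = 0.101), without treated replicate 1 (0.42, adjusted p = 0.064) and without treated replicate 3 (0.35, adjusted p = 0.096). Its exons share 532 bases with AIMP2 on the opposite strand, and the strand setting of the counting is not given in the sources used here. The same limit holds for 3 other members. EIF2AK3 shares 781 and PPP1R15B 523 exon bases with a long noncoding RNA gene on the opposite strand. EIF2AK2 shares 35 with GPATCH11 and 401 with the pseudogene ARL14EPP1.

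EIF2AK4 (chr15:39934115-40035591, plus strand) encodes GCN2. Its 3 control values in GFP-positive cells, 34.1, 40.4 and 43.9 CPM, overlapped the treated ones, 46.5, 45.4 and 36.6 CPM. The log2 fold change was 0.19 with a 95% interval of -0.16 to 0.53 (adjusted p = 0.38), so a 2-fold change in either direction lay outside the interval.

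PPP1R15A (chr19:48872212-48876059, plus strand) encodes GADD34, the stress-inducible phosphatase subunit, and was the most abundant of the 7 in every group per kilobase of canonical transcript. It had 346.8, 381.9 and 305.0 CPM in control and 1331, 1369 and 1095 CPM in treated GFP-positive cells. Treated replicate 3, which was highest for EIF2AK3, was lowest here, and the groups did not overlap. The rise was 3.86-fold (log2 fold change 1.95, standard error 0.16, adjusted p = 4.8e-12).

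PPP1R15B (chr1:204396492-204411887, minus strand) encodes CReP, known as the constitutive subunit. Its level was 27.7, 28.5 and 37.7 CPM in the controls and 82.3, 61.2 and 98.9 CPM in the treated cells. Every treated library exceeded every control, with replicate 3 highest in both groups. The rise was 2.72-fold (log2 fold change 1.44, standard error 0.19, adjusted p = 7.2e-08).

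DNAJC3 (chr13:95677139-95794988, plus strand) encodes p58IPK, which works with the chaperone BiP in the ER lumen. It had 10.5, 9.44 and 11.1 CPM in the controls and 59.9, 45.0 and 106.1 CPM in treated cells, the widest treated spread of the 7 relative to the mean (70.4 ± 31.9 CPM, SD, n = 3). Even the lowest treated library was above 4 times the highest control. Its 7.18-fold rise was the largest of the 7 (log2 fold change 2.84, standard error 0.23, adjusted p = 1.6e-12). EIF2AK3, PPP1R15A, PPP1R15B and DNAJC3 kept their direction and passed under all 15 alternatives tried for this comparison.

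The sorted-out cells allowed the same question to be asked outside the motor neuron gate. In GFP-negative cells, 5 of the 7 members were higher after treatment and 0 were lower, where 15.3% of 15513 tested genes were higher and 16.2% lower. None was lower at an unadjusted p under 0.05 or in DESeq2 either. The same 4 genes were DEGs as in GFP-positive cells, where 8.59% of tested genes were DEGs that rose, and the 5 members that passed had no overlap between the groups, as did 24.2% of tested genes in this direction. EIF2AK2 and EIF2AK4 did not pass. The median log2 fold change of the 7 was 1.17, against -0.01 for all tested genes. Cell type markers moved with treatment in this fraction too: the summed level of 5 dividing cell markers was 459.1 to 604.3 CPM in control and 150.6 to 202.9 CPM in treated libraries, that of 6 glial markers 48.3 to 78.98 and 11.96 to 19.0 CPM, and that of 10 motor neuron markers 423.9 to 461.4 and 158.9 to 198.7 CPM. Their part in the members' values was not tested.

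EIF2AK3 had 9.76, 16.1 and 17.3 CPM in control and 58.6, 44.002 and 86.6 CPM in treated GFP-negative libraries. Treated replicate 3 was again the highest, and the rise was 4.30-fold (log2 fold change 2.10, standard error 0.30, adjusted p = 7.5e-04). PPP1R15A had 250.02, 202.6 and 160.6 CPM in control and 1185, 1224 and 1058 CPM in treated libraries. Here it was the most strongly raised of the 7, by 5.56-fold (2.48, standard error 0.19, adjusted p = 3.4e-05).

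PPP1R15B stood at 18.8, 26.7 and 30.05 CPM in control and 55.5, 49.9 and 67.3 CPM in treated GFP-negative cells. It rose 2.25-fold (log2 fold change 1.17, standard error 0.21, adjusted p = 0.0029). DNAJC3 had 17.0, 14.99 and 20.4 CPM in control and 59.3, 40.0 and 57.5 CPM in treated libraries. Its rise was 2.94-fold (1.56, standard error 0.21, adjusted p = 6.9e-04). Tested against a fold change of 2 instead of no change, EIF2AK3 and PPP1R15A still passed in GFP-negative cells, and PPP1R15B (adjusted p = 0.58) and DNAJC3 (adjusted p = 0.054) did not.

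Of the remaining kinases, EIF2AK1 passed in GFP-negative cells. It had 135.6, 130.0 and 118.2 CPM in control and 187.2, 176.3 and 173.1 CPM in treated libraries, a 1.37-fold rise (log2 fold change 0.46, standard error 0.14, adjusted p = 0.0338). EIF2AK2 ran from 11.8 to 24.3 CPM in control and from 18.3 to 24.4 CPM in treated libraries, which overlapped (0.27, 95% interval -0.25 to 0.79, adjusted p = 0.47). EIF2AK4 ran from 37.2 to 51.2 CPM in control and from 47.3 to 75.0 CPM in treated libraries, also with overlap (0.35, 95% interval -0.06 to 0.77, adjusted p = 0.23).

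Without control GFP-negative replicate 3, the library rich in globin RNA, the log2 fold changes in GFP-negative cells were 2.26 for EIF2AK3, 2.33 for PPP1R15A, 1.32 for PPP1R15B and 1.69 for DNAJC3, and all 4 passed. EIF2AK2 was at 0.55 (adjusted p = 0.097) without that library, about 2 times the value with it, and EIF2AK4 at 0.42 (adjusted p = 0.187). EIF2AK1 lost its call without that library (0.41, adjusted p = 0.074). It also lost it without control replicate 2 (adjusted p = 0.122), treated replicate 1 (adjusted p = 0.141) or treated replicate 2 (adjusted p = 0.067), and with the GC trend removed (0.39, adjusted p = 0.058).

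**Figure D2:**
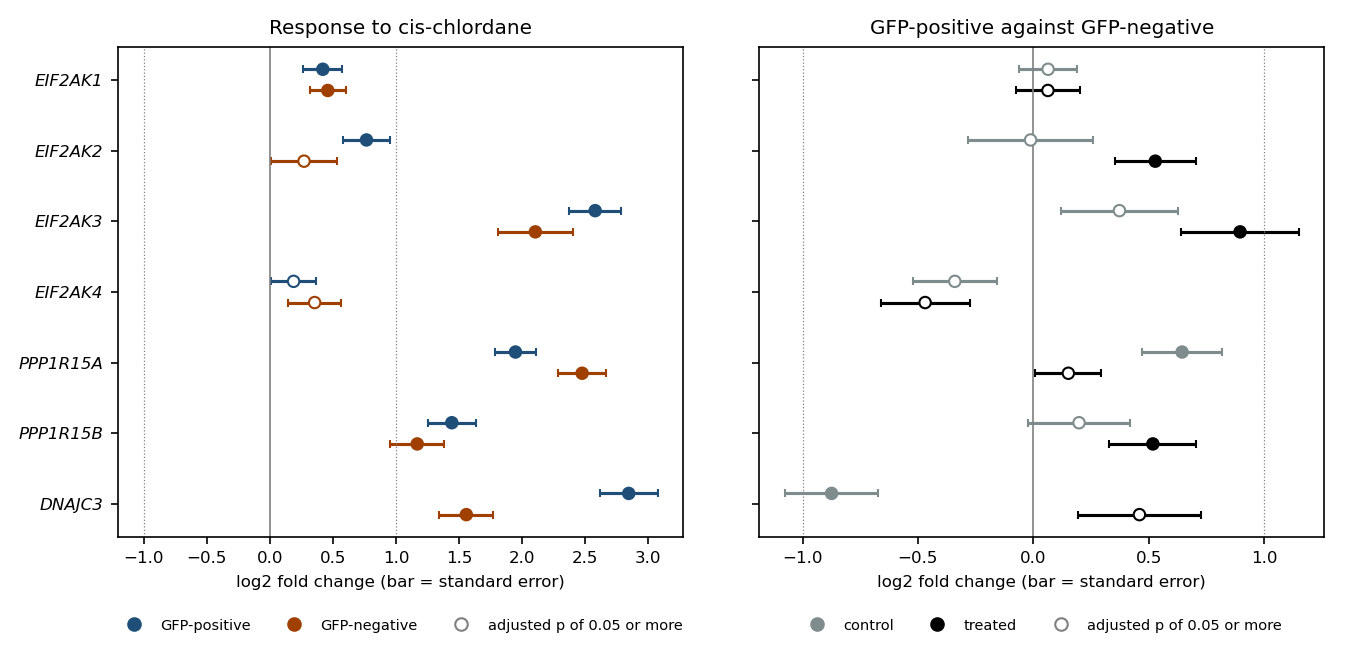
Log2 fold change of each gene with its standard error from edgeR, for treated against control cells in each sort fraction (left) and for GFP-positive against GFP-negative cells in each treatment (right). Filled points had an adjusted p under 0.05 and dotted lines mark a 2-fold change. The 4 strong responders lie beyond the 2-fold line in both fractions, and no difference between fractions reaches it.

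Whether the response differed between the fractions was tested as an interaction between treatment and sort fraction over all 12 libraries. In edgeR 0 of the 7 members passed, where 2.19% of 16226 tested genes did, although 2 members had an unadjusted p under 0.05, and in DESeq2 1 member passed. DNAJC3 had a response larger by 1.198 on the log2 scale in GFP-positive cells (standard error 0.37, 95% interval 0.47 to 1.93, adjusted p = 0.112), and PPP1R15A one smaller there, at -0.62 (standard error 0.23, 95% interval -1.06 to -0.17, adjusted p = 0.18). With each culture as a block, which pairs GFP-positive and GFP-negative sorts by replicate number, both passed: DNAJC3 at 1.12 (adjusted p = 0.0113) and PPP1R15A at -0.64 (adjusted p = 0.041). DNAJC3 also passed in DESeq2 (1.26, adjusted p = 0.0255) and without treated GFP-positive replicate 2 (1.44, adjusted p = 0.0475). Without the globin-rich library the interaction was 1.07 for DNAJC3 (adjusted p = 0.159) and -0.47 for PPP1R15A (adjusted p = 0.33). For EIF2AK3 it was 0.38 with a 95% interval of -0.40 to 1.17 (adjusted p = 0.68), and for PPP1R15B 0.19, from -0.41 to 0.79 (adjusted p = 0.81). Without the globin-rich library these were 0.23 (adjusted p = 0.83) and 0.034 (adjusted p = 0.976).

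The levels without pesticide were then compared between the fractions, with the same control libraries that entered the comparisons above. Of the 7 members, PPP1R15A was higher and DNAJC3 lower in control GFP-positive cells, where 17.1% of 15404 tested genes were higher and 23.1% lower. PPP1R15A exceeded its GFP-negative level in every library, by 1.56-fold (log2 fold change 0.64, standard error 0.17, adjusted p = 0.0133), and the call was lost without control GFP-positive replicate 2 (0.60, adjusted p = 0.052). DNAJC3 was 1.83-fold lower in the GFP-positive cells (-0.87, standard error 0.20, adjusted p = 0.0066), with 9.44 to 11.1 CPM against 14.99 to 20.4 CPM. Without the globin-rich library these values were 0.52 (adjusted p = 0.0268) and -0.72 (adjusted p = 0.0104). EIF2AK4 was at -0.34 (adjusted p = 0.166) and, with the culture as a replicate block, at -0.33 (adjusted p = 0.0456). The other kinases and PPP1R15B did not pass, at log2 fold changes of -0.01 to 0.37. Without the globin-rich library EIF2AK2 went from -0.01 to 0.30 (adjusted p = 0.30), EIF2AK3 from 0.37 to 0.56 (adjusted p = 0.069), PPP1R15B from 0.20 to 0.38 (adjusted p = 0.172) and EIF2AK4 to -0.25 (adjusted p = 0.33), and none of them passed.

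After treatment, 3 members were higher in GFP-positive than in GFP-negative cells and 0 were lower, where 24.9% of 15416 tested genes were higher and 24.9% lower. At an unadjusted p under 0.05, and in DESeq2, 1 was lower, which was EIF2AK4. EIF2AK3 was 1.86-fold higher (log2 fold change 0.90, standard error 0.25, adjusted p = 0.0109), although its ranges of 79.6 to 153.4 and 44.002 to 86.6 CPM overlapped, and without treated GFP-positive replicate 3 the value was 0.59 (adjusted p = 0.079). EIF2AK2 was 1.44-fold higher without overlap (0.53, adjusted p = 0.024), and PPP1R15B was 1.43-fold higher with overlap (0.52, adjusted p = 0.036). With all 12 libraries in 1 fit, EIF2AK2 (adjusted p = 0.079) and PPP1R15B (adjusted p = 0.076) no longer passed. With the GC trend removed, EIF2AK2 was at 0.30 (adjusted p = 0.157) and PPP1R15B at 0.44 (adjusted p = 0.062). Both also lost their calls without treated GFP-positive replicate 1, treated GFP-positive replicate 3 or treated GFP-negative replicate 1, EIF2AK2 in addition without treated GFP-negative replicate 3 and PPP1R15B without treated GFP-negative replicate 2.

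EIF2AK4 went the other way. It had 36.6 to 46.5 CPM in treated GFP-positive and 47.3 to 75.0 CPM in treated GFP-negative libraries, without overlap, and narrowly missed the threshold (-0.47, standard error 0.19, adjusted p = 0.0586). It passed with the culture as a replicate block (-0.45, adjusted p = 0.0099), in DESeq2 (-0.49, adjusted p = 0.0375), with RLE scaling (-0.49, adjusted p = 0.0495), with no filter (-0.46, adjusted p = 0.0436) and without treated GFP-negative replicate 3 (-0.63, adjusted p = 0.0107). PPP1R15A, at 0.15 (adjusted p = 0.40), passed with the GC trend removed (0.50, adjusted p = 0.0065). Its GC content, 59.0%, was the highest of the 7. DNAJC3, lower in control motor neurons, was at 0.46 after treatment (adjusted p = 0.172), and passed with the culture as a replicate block (0.38, adjusted p = 0.042). The GFP-negative fraction also held more progenitor marker RNA, with 7243 to 8246 CPM summed over 8 markers against 2334 to 3172 CPM in treated GFP-positive cells, and more RNA of 5 dividing cell markers, with 151 to 203 CPM against 32.5 to 37.1 CPM. The part of these cells in the differences between fractions was not tested.

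Ordered by mean level, EIF2AK3, PPP1R15A and PPP1R15B ran from treated GFP-positive through treated GFP-negative and control GFP-positive to control GFP-negative cells. For all 3 genes the 2 treated groups overlapped, and treated GFP-negative cells did not overlap control GFP-positive cells. The 2 control groups overlapped for EIF2AK3 and PPP1R15B and not for PPP1R15A. DNAJC3 had its lowest level in control GFP-positive cells, below control GFP-negative cells without overlap. EIF2AK4 had its highest mean in treated GFP-negative cells, and each group overlapped its neighbour in the order.

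To compare the kinases with each other, counts were divided by the length of the canonical transcript in kilobases. HRI transcripts were the most abundant of the 4 in every group, with 32.8 ± 1.63 CPM per kb in control and 41.6 ± 3.46 CPM per kb in treated GFP-positive cells (SD, n = 3). PERK stood at 4.46 ± 0.856 CPM per kb in control GFP-positive cells, below GCN2 at 7.13 ± 0.896 CPM per kb, and at 25.3 ± 8.17 CPM per kb in treated ones, above GCN2 at 7.73 ± 0.981 CPM per kb. PKR was the lowest of the 4 on this scale, at 1.93 ± 0.326 and 3.12 ± 0.152 CPM per kb. The order of PERK and PKR turns with the length used: with all annotated exons merged, PERK was below PKR in control cells, at 0.977 against 1.75 CPM per kb in GFP-positive and 0.696 against 1.62 in GFP-negative cells.

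As a share of the summed kinase level per kilobase, EIF2AK3 made up 8.25% to 10.9% in control and 26.1% to 37.9% in treated GFP-positive libraries, means of 9.60% and 31.9%. In GFP-negative cells it made up 5.27% to 9.08% and 14.8% to 27.8%, means of 7.47% and 20.5%. Over the same step the mean share of EIF2AK1 went from 70.9% to 53.8% in GFP-positive and from 68.7% to 60.1% in GFP-negative cells, although its own level rose. These shares depend on the transcript length used. With all annotated exons merged, which makes EIF2AK3 20691 bases long in place of 4536, its mean shares were 3.01% and 12.0% in GFP-positive and 2.36% and 7.19% in GFP-negative cells.

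**Figure D3:**
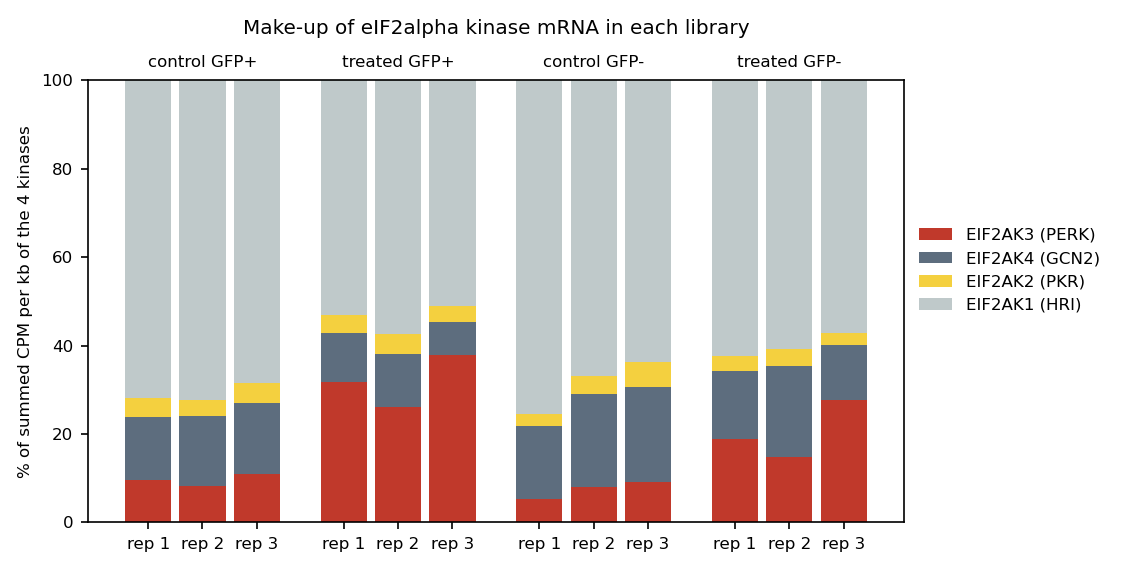
Share of each eIF2alpha kinase in the summed kinase level of each library, in percent of CPM per kilobase of canonical transcript, with 1 bar per library. The EIF2AK3 (PERK) part is 8.25% to 10.9% in control and 26.1% to 37.9% in treated GFP-positive libraries, and the EIF2AK1 (HRI) part is above 50% in every library.

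The balance of the phosphatase subunits was described in the same way. Per kilobase, PPP1R15A exceeded PPP1R15B by 25.3 ± 6.34 times in control and 37.0 ± 12.7 times in treated GFP-positive libraries (SD, n = 3), and these ranges, 18.1 to 29.95 and 24.8 to 50.1, overlapped. In GFP-negative cells the ratio was 19.6 ± 9.18 in control and 46.0 ± 9.97 in treated libraries, ranges of 12.0 to 29.8 and 35.2 to 54.9 that did not overlap.

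PPP1R15B was the gene whose log2 CPM followed EIF2AK3 most closely over the 12 libraries among 13811 genes compared, with Pearson's r = 0.994, followed by ERO1B, which encodes an ER oxidase (r = 0.992). For PPP1R15B the closest were NUP58, a nuclear pore gene (r = 0.995), and EIF2AK3. For PPP1R15A they were P4HA2, a collagen prolyl hydroxylase gene, and SARS1, the seryl-tRNA synthetase gene (r = 0.9945 and 0.9944). DNAJC3 was closest to TAF1D and FBXO32 (r = 0.987 and 0.985). The members that moved least had their own company: EIF2AK1 was closest to CHP1 and VLDLR-AS1 (r = 0.984 and 0.966), EIF2AK2 to ATM and NEK1 (r = 0.978 and 0.972), and EIF2AK4 to GRB10 and WASF2 (r = 0.916 and 0.915). The 12 points share 4 groups and paired sorts, so these values are descriptions.

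Within groups, where each library was taken as its deviation from the group mean, EIF2AK3 and PPP1R15B again moved together (r = 0.959 over 12 libraries), and PPP1R15A moved against both, at r = -0.844 with EIF2AK3 and -0.884 with PPP1R15B. With the GC trend removed these were 0.954, -0.804 and -0.819. Replicate 3 of each of the 4 groups had the highest EIF2AK3 and PPP1R15B and the lowest PPP1R15A of its group. With 4 group means removed and sorts paired, the 12 libraries are not independent points, so these values too are descriptions.

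**Figure D4:**
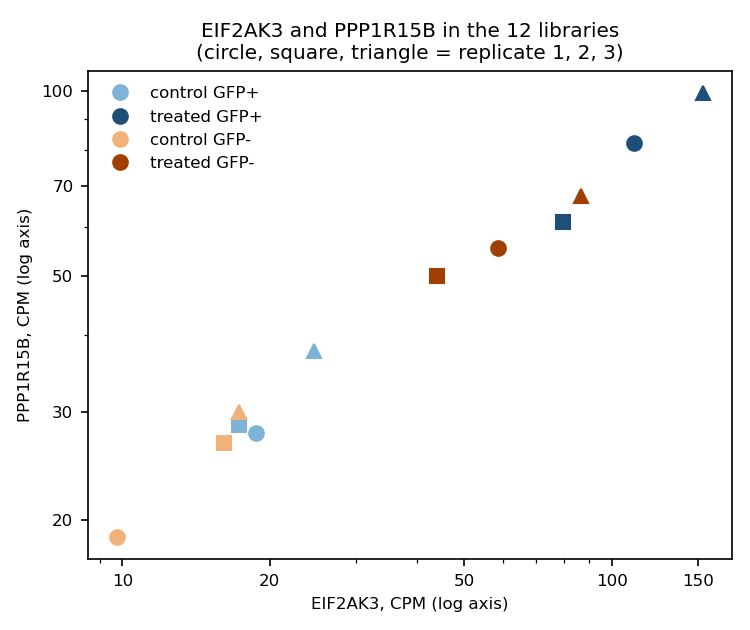
EIF2AK3 against PPP1R15B in the 12 libraries, both in TMM-scaled CPM on log axes, with colours for the 4 groups and symbols for replicates 1 to 3. The libraries lie along 1 line (r = 0.994 on the log2 scale), from control GFP-negative replicate 1 at 9.76 and 18.8 CPM to treated GFP-positive replicate 3 at 153.4 and 98.9 CPM.

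The rest of the pathway was read from lists of its known components. Of 8 subunits of eIF2 and its exchange factor eIF2B, 4 were higher and 1 lower in treated GFP-positive cells, where 26.5% of all tested genes were higher and 24.4% lower, with a median log2 fold change of 0.38 against 0.03 for all tested genes. EIF2S3 and EIF2S2, the gamma and beta subunits of eIF2, rose by 1.72 (standard error 0.17, adjusted p = 1.0e-10) and 1.60 (0.17, adjusted p = 1.3e-09). EIF2S3 went from 112.3 ± 18.9 to 352.9 ± 23.2 CPM (SD, n = 3). EIF2S1, which encodes eIF2alpha itself, rose by 0.50 (0.18, adjusted p = 0.0199), EIF2B2 rose by 0.58 (adjusted p = 0.0044), and EIF2B5, the catalytic subunit of eIF2B, fell by 0.42 (0.16, adjusted p = 0.0301). EIF2S1 and EIF2B5 were named after their values were seen. In GFP-negative cells 3 of the 8 were higher and 0 lower, where 15.3% and 16.2% of all tested genes were, with a median of 0.19, and EIF2S3 and EIF2S2 were at 1.19 (adjusted p = 7.6e-04) and 0.98 (adjusted p = 0.0047).

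Of the 4 genes for other carriers of initiator tRNA, EIF2A rose in both fractions, by 1.71 in GFP-positive cells (standard error 0.18, adjusted p = 4.4e-10) and by 1.49 in GFP-negative cells (0.18, adjusted p = 3.7e-04). MCTS1, DENR and EIF2D did not pass in either, at values of -0.35 to 0.52. EIF2D was at -0.35 in GFP-positive and 0.41 in GFP-negative cells, and its interaction of -0.84 (standard error 0.22) had an adjusted p of 0.0549, and passed with the culture as a replicate block (-0.84, adjusted p = 0.0191).

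PPP1R15 proteins act through the catalytic subunits of protein phosphatase 1, and these did not move together. In GFP-positive cells PPP1CB rose by 1.25 (standard error 0.19, adjusted p = 1.3e-06), from 64.4 ± 8.51 to 144.9 ± 51.1 CPM, and PPP1CC rose by 0.43 (0.16, adjusted p = 0.0265). PPP1CA fell by 0.79 (0.17, adjusted p = 1.7e-04), from 345.8 ± 75.6 to 190.1 ± 21.1 CPM. The adaptor NCK1 rose by 0.91 (0.23, adjusted p = 0.0011) and NCK2 was at 0.32 (adjusted p = 0.126). Of these 5 genes, 3 were thus higher and 1 lower, where 26.5% of all tested genes were higher and 24.4% lower. In GFP-negative cells PPP1CB alone of the 5 passed, at 1.02 (0.22, adjusted p = 0.0062), with PPP1CA at -0.27 (adjusted p = 0.28). Of all genes tested there, 15.3% were higher. Without the globin-rich library 2 of the 5 were higher, as were 2776 of 15859 tested genes.

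Among 9 activators and inhibitors of the kinases, 3 were higher and 1 lower in GFP-positive cells, with a median of 0.17, where 26.5% of all tested genes were higher and 24.4% lower. In GFP-negative cells 4 were higher and 0 lower, where 15.3% and 16.2% of all tested genes were, with a median of 0.43, and 3 were higher without the globin-rich library. HSPA5, which encodes BiP, the ER chaperone that holds PERK inactive, led in both. It went from 320.0 ± 35.3 to 3177 ± 420.4 CPM in GFP-positive cells (log2 fold change 3.38, standard error 0.17, adjusted p = 1.2e-17) and from 510.8 ± 89.2 to 6039 ± 598.6 CPM in GFP-negative cells (3.54, 0.17, adjusted p = 4.7e-06). IMPACT, an inhibitor of GCN2 activation, rose by 0.74 (0.21, adjusted p = 0.0043) in GFP-positive and by 0.95 (0.20, adjusted p = 0.0062) in GFP-negative cells. TARBP2, whose protein TRBP restrains PKR, fell by 0.90 (0.17, adjusted p = 5.0e-05) in GFP-positive cells and was at -0.29 (adjusted p = 0.32) in GFP-negative cells.

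Downstream of eIF2alpha, all 16 tested genes of a 17-gene list of ATF4 and its targets were DEGs that rose in GFP-positive cells, where 12.8% of all tested genes were, with a median log2 fold change of 2.75. In GFP-negative cells all 16 were also DEGs that rose, where 8.59% of all tested genes were, with a median of 2.67, and the count was 16 without the globin-rich library too. SLC7A11, the cystine transporter gene, went from 0.819 ± 0.131 to 39.0 ± 7.14 CPM in GFP-positive cells (5.63, standard error 0.25, adjusted p = 3.2e-19). ATF3 rose by 4.54 (0.19, adjusted p = 4.5e-20), and DDIT3, the gene of the stress factor CHOP that is known to act on the PPP1R15A promoter, by 3.62 (0.21, adjusted p = 1.7e-16), from 17.1 ± 3.37 to 199.9 ± 56.7 CPM.

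PERK is one of several ER sensors, and the others were compared with it. Of 4 genes, ERN1 (IRE1), ATF6 and XBP1 rose in GFP-positive cells, by 1.97 (standard error 0.21), 1.81 (0.17) and 2.64 (0.18), with adjusted p from 2.1e-14 to 1.6e-09, and ATF6B was at 0.11 (adjusted p = 0.77). In GFP-negative cells all 4 rose, ERN1, ATF6 and XBP1 by 1.76, 1.77 and 2.46 and ATF6B by 1.34 (0.36, adjusted p = 0.0192). Of all tested genes, 26.5% were higher in GFP-positive and 15.3% in GFP-negative cells. The interaction of ATF6B was -1.32 (standard error 0.46, adjusted p = 0.154). A list of 15 genes held ER chaperones, ER-associated degradation and SEC24D, of the vesicle coat that leaves the ER. All 15 were higher in both fractions, where 26.5% and 15.3% of all tested genes were, with medians of 1.87 and 1.59. Without the globin-rich library 14 of the 15 passed in GFP-negative cells. SEC24D, the vesicle coat gene, led the list in GFP-positive cells at 4.004 (0.23), followed by HERPUD1 at 2.95 (0.17) and HSP90B1 at 2.69 (0.17).

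EIF2AK2 is an interferon-stimulated gene, so a list of 18 others in the count table was read beside it. In GFP-positive cells 10 of them could be tested, with 5 higher and 2 lower, where 26.5% of all tested genes were higher and 24.4% lower. MX1 went from 1.08 ± 0.454 to 16.5 ± 4.34 CPM (log2 fold change 4.02, standard error 0.28, adjusted p = 4.8e-14), and IFI6 fell by 1.40 (0.27, adjusted p = 4.1e-05), from 6.67 ± 1.41 to 2.40 ± 0.466 CPM. IFIT3 had at most 3 counts in each control library and 0.535 ± 0.258 CPM after treatment. In GFP-negative cells 3 were higher and 3 lower of 13 tested, with MX1 at 1.61 (0.28, adjusted p = 0.0021) and IFI6 at -1.37 (0.23, adjusted p = 0.0018). Of all genes tested there, 15.3% were higher and 16.2% lower. Without the globin-rich library 4 were higher and 2 lower of 14 tested.

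**Figure D5:**
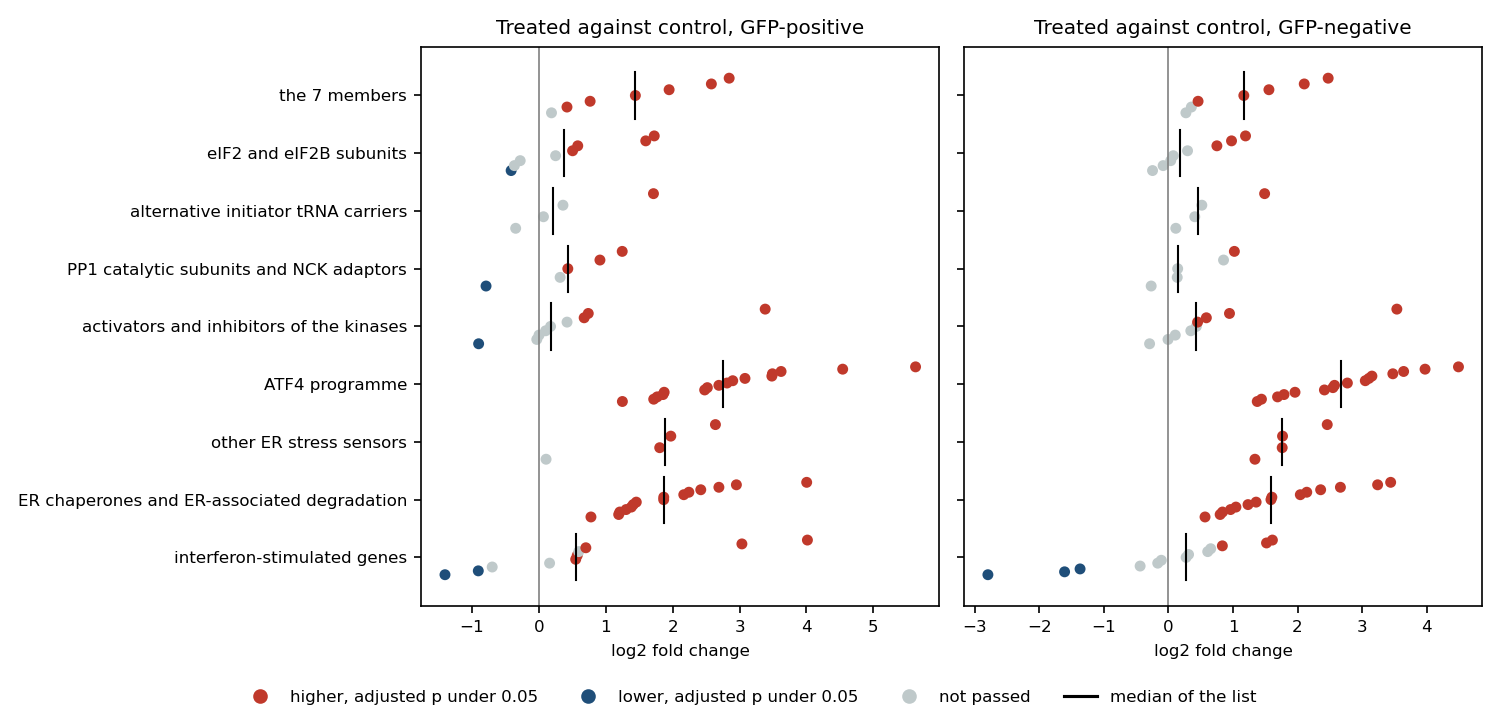
Log2 fold change of treated against control cells for the 7 genes and each list of pathway genes, 1 point per tested gene, in GFP-positive (left) and GFP-negative cells (right). Red and blue points had an adjusted p under 0.05 and black lines are list medians. The ATF4 and ER chaperone lists lie wholly on the higher side in both fractions, and the eIF2 and phosphatase lists straddle 0.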

How the data were processed

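The members and the gene lists were chosen with earlier results of these data known. Counts per gene of 12 libraries were deposited by the authors without normalization, after concatenating lanes and mapping single-end reads of a stranded mRNA kit to hg38 with HISAT2 and an Ensembl annotation; per the labels, featureCounts made the counts. Depth was 23414935 to 38347050 counts per library, and the 95% intervals follow from the standard errors of the fit by a normal approximation and include the spread between libraries. Groups and replicate numbers came from the titles, and 0 per-sample columns were left unused.

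For the tests edgeR 4.0.16 was run in R 4.3.3. Genes were kept by filterByExpr (minimum count 10, minimum total 15), counts were scaled by TMM, and the quasi-likelihood F-test was adjusted by Benjamini-Hochberg over all genes tested. Standard errors are the log2 fold change divided by the square root of F. Comparisons of 2 groups used their 6 libraries, and the interaction used all 12. With 3 libraries a group an exact permutation test of 1 gene cannot go below 0.1, so none is given. Likeness was Pearson's r of log2 (CPM + 0.5) among genes with a mean of at least 1 CPM.

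Same-numbered GFP-positive and GFP-negative libraries were taken as sorts of 1 culture, from their replicate numbers. Over 16226 genes the correlation of their deviations from group means was 0.384, 0.118 and 0.327 in the 3 control and 0.20, 0.241 and 0.476 in the 3 treated cultures. Differently numbered libraries were not compared, so these values alone do not show the pairing. Alternatives were DESeq2 1.42.0, a replicate block, all 12 libraries in 1 fit, RLE scaling, scaling by library size, omission of the filter, a stricter filter of 10 counts in every library, glmTreat, removal of a GC trend (loess, span 0.5) and each library left out. Merged exon lengths, the GC correction of correlations, and list counts and list gene interactions without the globin-rich library or with the block were added after seeing the data. Named were the 7 members, up to 3 genes per list with the largest passing change in GFP-positive cells, every gene of lists of 5 or fewer, 2 genes most like each member, and ISL1. Positions, lengths and GC came from GENCODE release 44, where 25506 of 28278 symbols matched. Promoters came from RefSeq on GRCh38.p14, with 35116 windows. The fits were tested on simulated counts. Figures used matplotlib 3.10.9 in Python 3.11.15.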

Additional observations from a re-analysis of the deposited data

Results flagged for a closer look

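The response of SLC7A11 differed between the sort fractions by edgeR's interaction test. It was larger by 1.57 on the log2 scale in GFP-positive cells (standard error 0.29, adjusted p = 0.0118), where the gene went from 0.819 to 39.0 CPM, while in GFP-negative cells it went from 5.12 to 81.9 CPM (means of 3 libraries). Every treated library was above every control library in both fractions, and the treated level stayed lower in GFP-positive cells (log2 difference -1.05, standard error 0.17, adjusted p = 2.4e-04).

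MX1 also differed, with a response larger by 2.31 in GFP-positive cells (standard error 0.42, adjusted p = 0.0098). Its means went from 1.08 to 16.5 CPM in GFP-positive and from 3.92 to 12.2 CPM in GFP-negative cells. Both genes belong to the lists read beside the kinases, and both also passed with the culture as a replicate block (1.54, adjusted p = 0.0018, and 2.28, adjusted p = 0.0011). Of the 7 members 0 passed this test in edgeR without the block, and DNAJC3 (adjusted p = 0.0113) and PPP1R15A (adjusted p = 0.041) passed with it. Dixon's test for single libraries was not run, since each group held 3.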

How the results depend on the processing

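EIF2AK3, PPP1R15A, PPP1R15B and DNAJC3 were higher after treatment in both fractions under every alternative, with log2 fold changes of 2.30 to 2.77, 1.86 to 2.23, 1.15 to 1.60 and 2.37 to 3.07 in GFP-positive and 1.80 to 2.31, 2.33 to 2.68, 0.997 to 1.32 and 1.32 to 1.72 in GFP-negative cells. They passed throughout, except PPP1R15B and DNAJC3 under glmTreat in GFP-negative cells, where 2 members in place of 4 were DEGs. glmTreat, which tests against a 2-fold change and so calls fewer genes, gave 920 DEGs higher and 728 lower (main 1959 and 1716) in GFP-positive, 446 and 366 (1332 and 1512) in GFP-negative cells, 295 and 1408 (1151 and 2355) between control fractions and 390 and 1170 (1541 and 2117) between treated ones. With the GC trend removed, 4407 genes were higher in control GFP-positive cells (main 2638), 1733 of them DEGs, and the cause was not tested.

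For the interaction, 157 genes were higher and 198 lower. The counts were 411 and 378 in DESeq2, 266 and 84 with library size alone, 519 and 745 with the culture as replicate block, and 105 lower with 10 counts in every library. Of the members, 1 was higher in DESeq2, and 1 higher and 1 lower with the block. Between control fractions, 2 members were lower with the replicate block (main 1). Between treated fractions, 1 was lower in DESeq2, with RLE scaling, with no filter and with the block (main 0), 1 was a DEG with library size alone (main 0), and 1 was higher with all 12 libraries in 1 fit (main 3). The cause of these shifts was not tested.

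Leaving out single libraries gave 1356 to 2776 higher and 1414 to 2760 lower genes in GFP-negative cells (main 2367 and 2520), with the lowest counts without treated replicate 1 (1356 and 1414) and control replicate 2 (1370 and 1522). For the interaction the ranges were 68 to 212 and 47 to 202, with 0 to 1 members higher, and 9 of the 12 left-out libraries moved a count by more than 1.5 times. Between control fractions 0 to 1 members were higher (0 without control GFP-positive replicate 2) and 1 to 2 lower (2 without control GFP-negative replicate 1). Between treated fractions 0 to 3 were higher (1 without replicate 1 of either fraction, 0 without GFP-positive replicate 3), 0 to 1 lower (1 without GFP-negative replicate 3) and 0 to 1 were DEGs (1 without GFP-negative replicate 3 or GFP-positive replicate 2).

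Reversals were seen only for values that did not pass, and their cause was not tested. The interaction of EIF2AK1 (main -0.13) was 0.127 with library size alone and 0.031 with 10 counts in every library, and -0.167 to 0.043 with libraries left out. That of EIF2AK4 (main -0.25) was 0.0031 with library size alone and -0.377 to 0.0037 with libraries left out. EIF2AK2 between control fractions (main -0.01) was 0.0204 in DESeq2, 0.0205 with RLE scaling, 0.0154 with library size alone, 0.0037 with no filter, 0.0373 with the replicate block, 0.0998 in the fit of all 12 libraries, 0.0774 with the GC trend removed and -0.245 to 0.304 with libraries left out. EIF2AK1 between treated fractions (main 0.06) ranged from -0.033 to 0.101 with libraries left out.

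The labels do not say whether treated and control libraries of the same number came from the same thaw. Their deviations from group means correlated at -0.039, 0.162 and 0.203 in GFP-positive and -0.032, 0.299 and -0.019 in GFP-negative cells. Some of these values lay within the range of the same-numbered sorts, 0.118 to 0.476, and the others lay below it. Whether a thaw was shared was not tested. With the replicate number as a block in the treated against control comparisons, EIF2AK1 in GFP-negative cells was at 0.46 (adjusted p = 0.053). No other call on a member changed there. The lowest count of any of the 7 members in a library was 281 (DNAJC3), and the 3 libraries a group limit the precision.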
